A study of Mus musculus with 12 samples.

Results

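The genes described here are 39 type I interferon-stimulated genes, chosen by symbol from a list of transcription factors, nucleic acid sensors, oligoadenylate synthetases, IFIT proteins, the ISG15 pathway and antiviral effectors. All 39 were found among the 32544 genes of the deposited table and all passed the filter on low counts with 14285 genes tested. They were read across 12 bulk RNA-seq libraries in 4 groups of 3. WT BMDM are bone marrow-derived macrophages of mice that carry LysMCre, and PHD2cko BMDM come from mice that also carry a conditional deletion of PHD2, the oxygen-sensing prolyl hydroxylase encoded by Egln1. The Cre is driven by the LysM promoter, which is active in macrophages and neutrophils, and both groups share LysMCre. The other groups are NIH/3T3 cells, an established mouse fibroblast line, kept for 72 h in medium conditioned by WT or by PHD2cko BMDM. RNA of BMDM was taken 24 h after seeding. The age of the mice, the oxygen level of the sequenced cultures, and whether the replicates came from separate animals are not given in the sources used here, so a p-value measures the spread between these libraries, which may be technical.

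Type I interferons bind the receptor Ifnar1/Ifnar2, and the kinases Jak1 and Tyk2 then phosphorylate STAT proteins, among them Stat2. Stat2 and Irf9 belong to a complex that binds the interferon-stimulated response element (ISRE) in promoters of antiviral genes. Macrophages keep such genes at a tonic level through small amounts of their own interferon, and most other cells induce them when interferon reaches them. Irf7 amplifies the response, and Usp18 and the Socs proteins dampen it.

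Library totals ran from 15516465 to 25199770 counts, and CPM below is the library-scaled count (TMM scaling). Egln1 counts were 860, 904 and 913 in WT BMDM and 1134, 1000 and 1364 in the libraries labelled PHD2cko, where the gene was higher (log2 fold change 0.33, adjusted p = 0.00203). The table holds whole-gene counts with no exon values, so the deletion could not be checked, and groups are named by their labels. Macrophage markers (23 genes) summed, per total count, to 42190 to 48284 CPM in the 6 BMDM libraries, with the PHD2cko libraries at 42190 to 43724. Summed fibroblast markers (10 genes) reached 5.89 CPM at most in BMDM and stood at 22047 to 28974 CPM in 3T3. Dendritic cell, neutrophil, B cell, and T and NK cell markers summed to at most 4.55 CPM in any library. In 3T3 the macrophage markers were not at 0. As a share of their sum in BMDM of the same label they stood at 0.0491% to 0.0522% in WT medium, and at 2.35%, 0.524% and 2.11% in replicates 1, 2 and 3 of PHD2cko medium. Replicate 1 of WT medium also stood apart from the other WT medium libraries, with chi-square values over genes, divided by their degrees of freedom, of 24.8 and 26.9 against 1.99 to 8.42 for all other replicate pairs.

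Promoter sequence shows what several of these genes share. RefSeq promoters (GRCm38.p6, 250 bases before to 50 after a gene's start) were found for 30 members. The table held none for Zbp1, Mx2, Rtp4, Usp18, Parp9, Oas2, Mx1, Dhx58 and Parp14. The ISRE core GAAANNGAA or its reverse complement TTCNNTTTC was present in 17 of the 30 members (56.7%), against 9.76% of 27025 genes with a promoter in the table. The GAS element TTCNNNGAA (gamma-activated site) was present in 8 members (26.7%) against 9.55% of genes. The 200 bases before the start are printed 5′ to 3′ on the gene's strand for 5 members chosen among those with a core. ISRE cores are in capitals (adjoining cores can overlap and then form 1 run). Cmpk2, which lies next to Rsad2, is printed as a gene whose window holds no such core. Ifit2 and Isg20, on which results below also turn, hold no core in any of their windows and are not printed. Ifit3 (chr19:34583329-34583528, plus strand) and Ifit1bl1 (chr19:34601969-34602168, minus strand) lie in the Ifit cluster of chromosome 19, Rsad2 (chr12:26456453-26456652, minus strand) and Cmpk2 (chr12:26469015-26469214, plus strand) point away from each other on chromosome 12, Oas1a (chr5:120907526-120907725, minus strand) lies in the Oas cluster of chromosome 5, and Trim30a (chr7:104465194-104465393, minus strand) lies on chromosome 7.
Ifit3: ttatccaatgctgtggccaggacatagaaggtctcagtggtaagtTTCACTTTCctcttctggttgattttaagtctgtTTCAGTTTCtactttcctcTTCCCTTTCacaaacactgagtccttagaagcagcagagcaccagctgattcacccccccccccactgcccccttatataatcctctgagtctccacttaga
Ifit1bl1: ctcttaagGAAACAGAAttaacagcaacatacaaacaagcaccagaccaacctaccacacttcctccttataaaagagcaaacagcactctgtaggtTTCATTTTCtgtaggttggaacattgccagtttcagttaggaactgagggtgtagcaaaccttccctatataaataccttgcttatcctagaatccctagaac
Rsad2: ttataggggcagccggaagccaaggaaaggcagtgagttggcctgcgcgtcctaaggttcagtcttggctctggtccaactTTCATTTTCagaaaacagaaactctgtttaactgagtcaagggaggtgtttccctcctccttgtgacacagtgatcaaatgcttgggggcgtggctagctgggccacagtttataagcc
Cmpk2: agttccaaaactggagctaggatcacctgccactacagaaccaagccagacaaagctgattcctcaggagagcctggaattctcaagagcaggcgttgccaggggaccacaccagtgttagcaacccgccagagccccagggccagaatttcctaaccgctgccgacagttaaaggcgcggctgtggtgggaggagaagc
Oas1a: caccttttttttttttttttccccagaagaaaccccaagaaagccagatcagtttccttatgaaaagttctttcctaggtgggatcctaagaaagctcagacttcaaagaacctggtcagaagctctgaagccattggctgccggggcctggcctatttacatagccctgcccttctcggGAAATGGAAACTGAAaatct
Trim30a: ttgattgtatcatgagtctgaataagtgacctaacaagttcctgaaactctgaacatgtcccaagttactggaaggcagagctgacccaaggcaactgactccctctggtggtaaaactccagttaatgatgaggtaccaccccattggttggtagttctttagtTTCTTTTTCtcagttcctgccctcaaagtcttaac
Counting the base before the start as -1, the Ifit3 cores begin at -155, -121 and -102, the Ifit1bl1 cores at -192 and -103, the Rsad2 core at -119, the overlapping Oas1a cores at -20 and -14, and the Trim30a core at -35. Other promoters of Trim30a and Ifit1bl1 are not printed. Cores there begin at base 4 after the start for Trim30a, and at -111 and -22 for Ifit1bl1. The median log2 fold change in BMDM was -0.53 over the 17 members with the core and -0.35 over the 13 without. In 3T3 these medians were 0.74 and 0.79. A match in this window is a description of sequence and not evidence of binding.

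The comparison of PHD2cko with WT BMDM asks how the interferon-stimulated genes stand in macrophages whose PHD2 gene is targeted. Ifit2, Ifit3, Ifit1bl1, Mx1, Rsad2, Cmpk2, Isg20, Bst2, Zbp1 and Oas3 fell, by 0.53 to 1.97 on the log2 scale. Of the 39 members, 38 had lower point estimates, with a median log2 fold change of -0.53 against 0.00 over all genes tested. The 10 members that fell past the threshold are to be read against 3.35% of all genes that fell and 3.38% that rose. No member rose past it in the edgeR quasi-likelihood test, and 26 members had an unadjusted p under 0.05, in either direction, as did 19% of all genes. The 3 PHD2cko libraries lay below all 3 WT libraries for 37 members, against 15.6% of all genes tested, and above them for Trim25 alone, against 16.3%. The spread used in this fit is shared with the 3T3 libraries. With the 6 BMDM libraries fitted alone, 37 members fell (10.8% of genes fell), Trim25 rose, and Oasl1 had an adjusted p of 0.588. With limma-voom, 14 members fell (3.98% of genes), the same 10 and Irf7, Irf1, Ifih1 and Oas2. With DESeq2, 9 fell (4.2% of genes), with Stat2 and Irf1 in and Oas3, Rsad2 and Cmpk2 out. Below, the threshold is that of the edgeR test of all 12 libraries unless another fit is named.

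**Figure D1:**
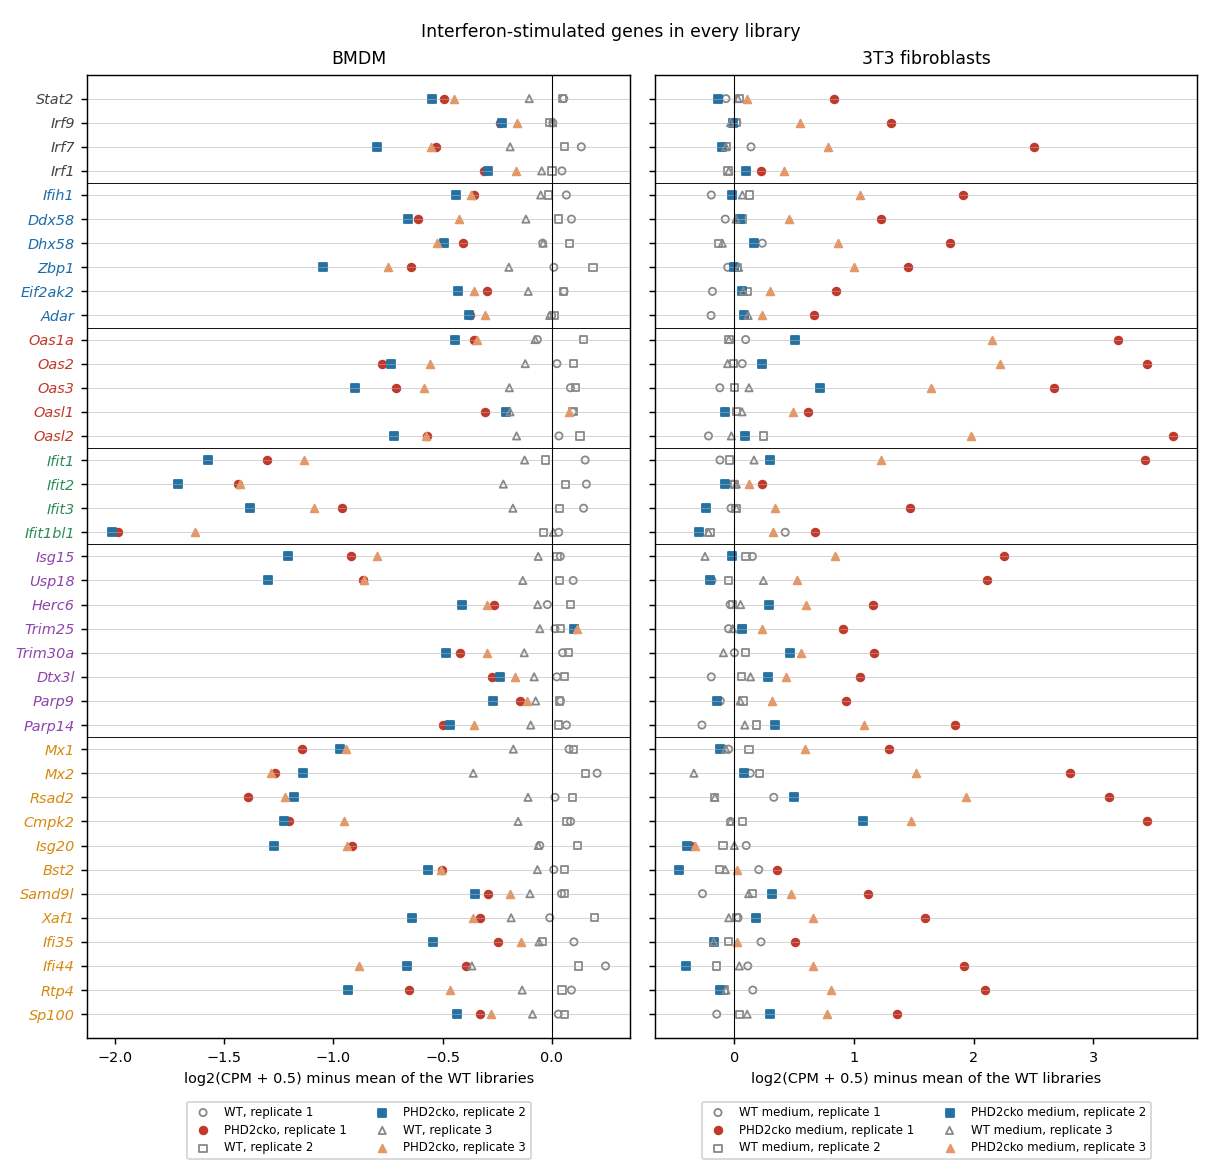
Each row is a member and each point a library, as log2(CPM + 0.5) minus the mean of the 3 WT libraries (BMDM, left) or of the 3 WT medium libraries (3T3, right), with open grey points for WT and filled points for PHD2cko. In BMDM the filled points lie left of 0 for nearly every gene, and in 3T3 replicate 1 of PHD2cko medium lies farthest right, with a median over members of 1.36 against 0.0611 for replicate 2 and 0.592 for replicate 3.

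Among the transcription factors, Stat2 stood at 156, 155 and 139.8 CPM in WT and 106, 103 and 110.0 CPM in PHD2cko BMDM, and Irf1 at 127, 123 and 119 CPM and 99.3, 100.4 and 110.0 CPM. For both genes the groups did not overlap. In the edgeR test of all 12 libraries the difference did not pass the threshold for Stat2 (log2 fold change -0.50 ± 0.18 (SE), adjusted p = 0.128) or for Irf1 (log2 fold change -0.25 ± 0.07 (SE), adjusted p = 0.0577), nor for Irf7 (log2 fold change -0.63) or Irf9 (-0.21). These factors depended on the fit. Stat2 passed with DESeq2, Irf7 with limma-voom, Irf1 with both and with the filter of at least 10 counts, and all 4 with the 6 BMDM libraries alone.

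Of the 6 sensors of RNA and DNA, Zbp1 fell. Zbp1, which binds Z-form nucleic acid and can start necroptosis, had a log2 fold change of -0.83 (adjusted p = 0.0174). Adar, which edits adenosine to inosine in double-stranded RNA, stood at 127, 128 and 126 CPM in WT and 97.5, 97.4 and 103 CPM in PHD2cko BMDM (log2 fold change -0.35 ± 0.12 (SE), adjusted p = 0.11). Ddx58, which encodes the RNA helicase RIG-I, stood at 116, 111 and 100.3 CPM and 71.1, 68.8 and 81.0 CPM (log2 fold change -0.57 ± 0.21 (SE), adjusted p = 0.14). Neither gene's groups overlapped. The helicases Ifih1 (-0.39) and Dhx58 (-0.48) and the kinase Eif2ak2 (-0.36) had log2 fold changes of similar size that did not pass the threshold.

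The oligoadenylate synthetases make short adenylate chains that activate the nuclease RNase L. Oas3 fell (-0.74 on the log2 scale, adjusted p = 0.0326). Oas2 stood at 171, 180.0 and 154 CPM in WT and 97.7, 101 and 114 CPM in PHD2cko BMDM (log2 fold change -0.69 ± 0.23 (SE), adjusted p = 0.0971). Oasl2 stood at 118, 126 and 103 CPM and 77.3, 69.6 and 77.1 CPM (log2 fold change -0.63 ± 0.43 (SE), adjusted p = 0.509), and Oas1a at 66.1, 76.5 and 65.6 CPM and 54.0, 50.8 and 54.5 CPM (log2 fold change -0.39 ± 0.21 (SE), adjusted p = 0.359). In all 3 genes every PHD2cko value lay below every WT value. Oasl1, which in mice restrains translation of Irf7, was the family member whose groups overlapped (log2 fold change -0.16).

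The IFIT proteins bind viral RNA and block its translation, and 3 of the 4 fell. Ifit2 stood at 143, 134 and 110.0 CPM in WT BMDM and 47.2, 38.8 and 47.3 CPM in PHD2cko BMDM (log2 fold change -1.54 ± 0.11 (SE), adjusted p = 2.27e-06). Ifit1bl1 went from 18.8, 17.9 and 18.4 CPM to 4.25, 4.17 and 5.56 CPM (log2 fold change -1.97 ± 0.21 (SE), adjusted p = 8.01e-05), the lowest estimate of the 39. Ifit3 stood at 70.2, 64.9 and 56.0 CPM and 32.3, 24.0 and 29.6 CPM (log2 fold change -1.15 ± 0.28 (SE), adjusted p = 0.025). Each PHD2cko library lay below each WT library for these genes. Ifit1, outside the rule for values in every library and chosen after its values were seen, had counts of 916, 866 and 805 in WT and 352, 258 and 459 in PHD2cko BMDM (log2 fold change -1.34 ± 0.51 (SE), adjusted p = 0.163). When the 6 BMDM libraries were fitted alone the adjusted p of Ifit1 was 7.26e-08. Ifit3 shares 61.8% of its 31-base words with other genes, mostly Ifit3b, and Ifit1bl1 shares 19.3%, mostly with Ifit1bl2, so their counts depend on how reads were split between copies.

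None of the 8 genes of the ISG15, ubiquitin and ADP-ribose group passed the threshold in BMDM in the edgeR test of all 12 libraries, with 4 at an unadjusted p under 0.05. Parp14, a mono-ADP-ribosyltransferase, stood at 454, 443 and 405 CPM in WT and 307, 314 and 338 CPM in PHD2cko BMDM (log2 fold change -0.44 ± 0.22 (SE), adjusted p = 0.313). Trim30a, a ubiquitin ligase of the TRIM family, stood at 187, 190.4 and 165 CPM and 135, 129 and 147 CPM (log2 fold change -0.40 ± 0.13 (SE), adjusted p = 0.103). Herc6, the main ISG15 ligase of the mouse, stood at 65.8, 70.9 and 63.8 CPM and 55.5, 50.1 and 54.2 CPM (log2 fold change -0.33 ± 0.12 (SE), adjusted p = 0.152). In these 3 genes the PHD2cko values were all lower. Trim25, the ubiquitin ligase of RIG-I, stood the other way at 296, 302 and 282 CPM in WT and 315, 314 and 317 CPM in PHD2cko BMDM (log2 fold change 0.10 ± 0.15 (SE), adjusted p = 0.811). Isg15 itself (-1.0, adjusted p = 0.213) and its protease Usp18 (-1.03, adjusted p = 0.17) had lower estimates that did not pass the threshold.

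Among the 12 other antiviral effectors, 5 fell. Rsad2 (viperin), which makes a chain-terminating nucleotide, stood at 66.8, 70.6 and 61.3 CPM in WT and 24.9, 28.9 and 28.0 CPM in PHD2cko BMDM (log2 fold change -1.28 ± 0.24 (SE), adjusted p = 0.00592). Its neighbour Cmpk2, a mitochondrial nucleotide kinase, stood at 56.2, 55.6 and 47.5 CPM and 22.7, 22.3 and 27.1 CPM (log2 fold change -1.14 ± 0.26 (SE), adjusted p = 0.0214). The starts of these genes lie 12752 bases apart. The exonuclease Isg20 stood at 5.26, 5.99 and 5.23 CPM and 2.67, 1.98 and 2.62 CPM (log2 fold change -1.17 ± 0.13 (SE), adjusted p = 0.000112), and the dynamin-like GTPase Mx1 at 46.4, 47.0 and 38.8 CPM and 19.5, 22.1 and 22.6 CPM (log2 fold change -1.04 ± 0.15 (SE), adjusted p = 0.00111). Values of the groups did not overlap for any of these 4 genes. The fifth was Bst2 (tetherin, -0.53, adjusted p = 0.0322), which lies on chromosome 8 as Egln1 does. Samd9l stood at 243, 245 and 219.6 CPM and 192, 184 and 206 CPM (log2 fold change -0.28 ± 0.15 (SE), adjusted p = 0.362), and Sp100, a protein of nuclear bodies, at 162, 165 and 149 CPM and 126, 117 and 130.4 CPM (log2 fold change -0.35 ± 0.15 (SE), adjusted p = 0.205). Neither passed the threshold although their groups did not overlap. The 5 others, Mx2, Xaf1, Ifi35, Ifi44 and Rtp4, had log2 fold changes of -1.37, -0.45, -0.30, -0.76 and -0.68, none past the threshold.

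The number of members that fell in BMDM ranged from 5 to 6 when any single BMDM library was left out, while 1.83% to 2.41% of all genes fell in these fits. Ifit2, Ifit1bl1, Mx1, Rsad2 and Isg20 fell in every such fit. The summed macrophage markers were also lower in PHD2cko BMDM, but this rested on Lyz2, the most abundant of them, at 0.715 times its WT mean. Without Lyz2 the sum was 32495 to 33258 CPM in WT and 31719 to 32823 CPM in PHD2cko BMDM, and 12 of the 23 markers had a higher and 11 a lower mean in PHD2cko BMDM. In bulk RNA, fewer cells of a type and less RNA per cell cannot be told apart.

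The comparison in 3T3 asks whether medium conditioned by PHD2cko rather than WT BMDM changed these genes in fibroblasts. Here 21 members rose (8.93% of all genes rose) and Isg20 alone fell (6.75% of all genes fell). The median log2 fold change was 0.96, against 0.00 over all genes, and 38 of 39 point estimates were positive. The members that rose included 4 of 5 OAS genes, 5 of 8 genes of the ISG15, ubiquitin and ADP-ribose group, 6 of 12 other effectors, 3 of 6 sensors, 2 of 4 factors and 1 of 4 IFIT genes. The PHD2cko medium libraries lay above all WT medium libraries for 13 members against 15.4% of all genes tested, and below them for Isg20, against 16.5%. The groups overlapped for the other 25.

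The replicates in PHD2cko medium were not alike. Against the mean in WT medium, 27 members were at least 2-fold higher in replicate 1, 1 in replicate 2 and 11 in replicate 3, and 38, 21 and 38 members lay above that mean. The same order was seen in the macrophage share, at 2.35%, 0.524% and 2.11%. Without replicate 1, 11 members rose (5.68% of genes) and the median log2 fold change was 0.46. Without replicate 2, 34 members rose (8.7% of genes) and the median was 1.22. Without replicate 3, 16 members rose (5.5% of genes). Without replicate 1, 2 or 3 of WT medium, 16, 12 and 12 members rose, beside 11.6%, 6.94% and 7.98% of genes. With the 6 fibroblast libraries fitted alone, 3 of the 35 members tested rose, Oas3, Trim30a and Cmpk2, against 4.23% of genes. Oas1a, Oas2, Oasl1 and Rsad2 did not pass the filter of that fit. With limma-voom on all 12 libraries, 11 members rose, against 9.11% of genes. They were Irf1, Oas1a, Oas3, Herc6, Trim30a, Dtx3l, Parp14, Rsad2, Cmpk2, Samd9l and Sp100. With DESeq2, 27 rose, against 10.1% of genes, the same 21 and Irf7, Eif2ak2, Adar, Trim25, Mx1 and Rtp4. Oas1a, Oas2, Oas3, Herc6, Trim30a, Dtx3l, Parp14, Rsad2, Cmpk2 and Sp100 rose whichever of the 6 fibroblast libraries was dropped. For the other 11 the call was lost in 5 of these 6 fits (Irf9, Ifih1, Zbp1 and Isg15), in 4 (Irf1), in 3 (Dhx58, Ifit1, Mx2 and Xaf1) or in 1 (Oasl2 and Samd9l).

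Several OAS genes started near 0 in 3T3. Oas1a had counts of 1, 0 and 0 in WT medium and 83, 4 and 37 in PHD2cko medium, a ratio of summed counts, each divided by the summed library totals, of 147 with a 95% counting interval of 25.9 to 5843 (adjusted p = 0.00454). Oas2 had counts of 2, 2 and 1 and 113, 3 and 45, a ratio scaled in the same way of 38.1 with an interval of 16 to 119 (adjusted p = 0.00968). In both genes replicate 1 held most of the counts, and replicate 2 stood at 4 and 3 counts. These intervals cover counting error only, and fitted fold changes of such genes depend on the prior count. Oas1a shares 68.8% of its 31-base words with other genes, chiefly Oas1g, which had 0, 2 and 1 counts in WT medium and 20, 1 and 9 in PHD2cko medium. Oasl2 stood at 2.39, 3.48 and 2.80 CPM in WT medium and 42.2, 3.07 and 12.7 CPM in PHD2cko medium (log2 fold change 2.73 ± 0.68 (SE), adjusted p = 0.0177), so that replicate 2 lay within the WT range. Oas3 had a log2 fold change of 2.64 (adjusted p = 0.00722). Oasl1, with 0, 1 and 1 counts in WT medium and 6, 0 and 5 in PHD2cko medium, did not pass the threshold.

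Rsad2 had counts of 4, 0 and 0 in WT medium and 86, 5 and 34 in PHD2cko medium, a ratio (scaled by library totals, as above) of 37.0 with an interval of 14.1 to 138 (adjusted p = 0.00845). Cmpk2 had 0, 1 and 0 and 99, 10 and 19, a scaled ratio of 151 with an interval of 26.7 to 6030 (adjusted p = 0.00718). All 3 libraries in PHD2cko medium held more of both transcripts than any in WT medium. For Rsad2 this rests on 5 counts in replicate 2 of PHD2cko medium against 4 in replicate 1 of WT medium. With the 5 genes of lowest WT medium counts at the lower end of their intervals, the median over the 39 members was 0.92 in place of 0.96. Of these genes only Oasl1 has a lower end below the median (a ratio of 1.42). The median could therefore move little, and its value says nothing about how low counts affect these genes.

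Trim30a rose in every alternative fit that was run, from 22.2, 23.8 and 20.8 CPM in WT medium to 50.7, 30.8 and 32.9 CPM in PHD2cko medium (log2 fold change 0.77 ± 0.15 (SE), adjusted p = 0.00496), and its groups did not overlap. Parp14 went from 8.55, 11.9 and 11.1 CPM to 38.7, 13.3 and 22.6 CPM (log2 fold change 1.24 ± 0.28 (SE), adjusted p = 0.0107). Herc6 went from 5.49, 5.59 and 5.87 CPM to 13.3, 7.0 and 8.81 CPM (log2 fold change 0.79 ± 0.18 (SE), adjusted p = 0.0114). In each of these genes replicate 2 of PHD2cko medium was the lowest of its group and still above the WT medium values. Isg15 (log2 fold change 1.40, adjusted p = 0.0472) and Dtx3l (0.64, 0.0196) also rose. The call of Isg15 was lost with limma-voom, the 6 libraries alone and the replicate block, and its estimate ranged from 0.51 to 1.78 with a library left out. Trim25 stood at 69.7, 75.6 and 71.4 CPM and 136, 75.3 and 84.8 CPM (log2 fold change 0.45 ± 0.16 (SE), adjusted p = 0.0758), and its high value was in replicate 1.

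Among other effectors, Samd9l stood at 19.0, 25.5 and 24.9 CPM in WT medium and 50.3, 28.6 and 32.0 CPM in PHD2cko medium (log2 fold change 0.67 ± 0.18 (SE), adjusted p = 0.0217), and Sp100 at 7.28, 8.38 and 8.77 CPM and 21.6, 10.1 and 14.2 CPM (log2 fold change 0.92 ± 0.21 (SE), adjusted p = 0.0103). Mx1 stood at 0.814, 0.979 and 0.793 CPM and 2.83, 0.752 and 1.55 CPM and did not pass the threshold (log2 fold change 0.98 ± 0.38 (SE), adjusted p = 0.101). Mx2, listed by the annotation as a polymorphic pseudogene, rose by 2.61 on the log2 scale (adjusted p = 0.0204), and Xaf1 by 0.96 (adjusted p = 0.032). Isg20 went the other way, from 28.8, 25.1 and 26.9 CPM in WT medium to 20.8, 20.2 and 21.3 CPM in PHD2cko medium (log2 fold change -0.37 ± 0.08 (SE), adjusted p = 0.00547). The 3 values of Isg20 in PHD2cko medium were alike, unlike those of the genes that rose. Bst2, Ifi35, Ifi44 and Rtp4 had log2 fold changes of 0.01, 0.14, 1.10 and 1.31, none past the threshold.

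The IFIT genes divided. Ifit1 had counts of 75, 112 and 90 in WT medium and 976, 91 and 216 in PHD2cko medium (log2 fold change 2.40 ± 0.65 (SE), adjusted p = 0.0263). Ifit2 stood at 43.9, 44.3 and 44.8 CPM and 52.2, 42.0 and 48.3 CPM (log2 fold change 0.10 ± 0.11 (SE), adjusted p = 0.576), Ifit3 at 9.92, 10.2 and 10.3 CPM and 29.0, 8.50 and 13.0 CPM (log2 fold change 0.74 ± 0.33 (SE), adjusted p = 0.154), and Ifit1bl1 at 0.61, 0.218 and 0.211 CPM and 0.822, 0.174 and 0.533 CPM (log2 fold change 0.63 ± 0.50 (SE), adjusted p = 0.445). Of these 4 genes only Ifit1 passed the threshold. The call of Ifit1 was lost with limma-voom and with the 6 libraries alone, and its estimate ranged from 0.93 to 2.84 with a library left out. Ifit3 and Ifit1bl1 were highest in replicate 1 and lowest of all 6 libraries in replicate 2.

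Of the sensors, Ifih1 (1.57, adjusted p = 0.0317), Dhx58 (1.21, 0.0257) and Zbp1 (1.32, 0.0415) rose on the log2 scale. These 3 calls were lost with limma-voom and with the 6 libraries alone, and those of Ifih1 and Zbp1 also with the macrophage share subtracted. With a library left out, the estimate ranged from 0.89 to 1.95 for Ifih1 and from 0.64 to 1.51 for Dhx58. Adar stood at 50.8, 61.7 and 63.1 CPM and 92.9, 61.7 and 68.3 CPM (log2 fold change 0.34 ± 0.12 (SE), adjusted p = 0.0794) and Ddx58 at 32.6, 36.0 and 34.7 CPM and 81.2, 35.5 and 47.5 CPM (log2 fold change 0.67 ± 0.22 (SE), adjusted p = 0.055). Neither passed the threshold, and in both replicate 2 lay within the WT medium range. Among the factors, Irf1 stood at 44.9, 40.3 and 40.4 CPM and 49.0, 44.8 and 55.8 CPM and rose (log2 fold change 0.26 ± 0.08 (SE), adjusted p = 0.0423), as did Irf9 (log2 fold change 0.74, adjusted p = 0.0492). Both calls were lost with the 6 libraries alone and with the replicate block, and that of Irf9 also with limma-voom and with the share subtracted. Irf1 was highest in replicate 3, and its groups overlapped by replicate 2 of PHD2cko medium. Stat2 stood at 73.2, 79.3 and 78.4 CPM and 137, 69.7 and 82.8 CPM (log2 fold change 0.33 ± 0.18 (SE), adjusted p = 0.249), with replicate 1 alone clearly above WT medium. Irf7 (1.91, adjusted p = 0.0634) did not pass the threshold.

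Libraries of the other members that rose in 3T3, which the rule gives by fold only, showed the same unevenness. Ifih1, which encodes MDA5, stood at 0.712, 1.02 and 0.951 CPM in WT medium and 4.73, 0.868 and 2.37 CPM in PHD2cko medium. Dhx58 (LGP2) stood at 4.53, 3.41 and 3.49 CPM and 14.4, 4.28 and 7.31 CPM, and Zbp1 at 0.763, 0.834 and 0.846 CPM and 3.08, 0.81 and 2.13 CPM. In these 3 sensors the groups overlapped. Oas3 stood at 0.458, 0.544 and 0.634 CPM and 6.17, 1.21 and 2.76 CPM, Xaf1 at 15.3, 15.1 and 14.4 CPM and 46.0, 17.0 and 23.9 CPM, and Dtx3l, the ubiquitin ligase that pairs with Parp9, at 13.3, 16 and 16.9 CPM and 32.2, 18.7 and 20.8 CPM. Here the groups did not overlap. Irf9 stood at 13.9, 13.8 and 13.4 CPM and 34.7, 13.5 and 20.3 CPM, Isg15 at 6.0, 5.77 and 4.44 CPM and 27.4, 5.26 and 9.98 CPM, and Mx2 at 0.56, 0.617 and 0.264 CPM and 6.27, 0.521 and 2.28 CPM. Each of these 9 genes was highest in replicate 1 of PHD2cko medium.

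The macrophage share was set beside each member's counts. The counts that a share of this size would carry from PHD2cko BMDM were a median of 4.40%, 2.77% and 6.63% of the members' observed counts in replicates 1, 2 and 3. The counts above the WT medium level exceeded the carried counts in 38, 18 and 37 of the 39 members. For the median member, the counts above the WT medium level equalled 25.7% of its level in PHD2cko BMDM in replicate 1, 0.395% in replicate 2 and 7.61% in replicate 3. Ifit1 had 976 counts in replicate 1, of which the share would carry 7.77. Among the members that rose, the carried part was largest for Oas2 and Oas1a. In replicate 3 it was also 44.9% of observed counts for Cmpk2, 41.3% for Oas3, 39.9% for Ifih1, 28.5% for Rsad2 and 24.3% for Parp14. In replicate 2 it was 40.4% for Rsad2, 27.2% for Ifih1 and 23.4% for Oas3. Oas2 had 45 counts in replicate 3, of which 36.9 would be carried, and 3 in replicate 2, where the share would carry 7.70. Oas1a had 37 counts in replicate 3, of which 18.8 would be carried, and 4 in replicate 2, of which 3.93 would be. In replicate 1 the share would carry 38.5 of 113 counts of Oas2 and 19.6 of 83 of Oas1a. With the share subtracted, 18 members rose, Oas1a and Oas2 among them, against 6.85% of genes, and Isg20 fell.

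**Figure D2:**
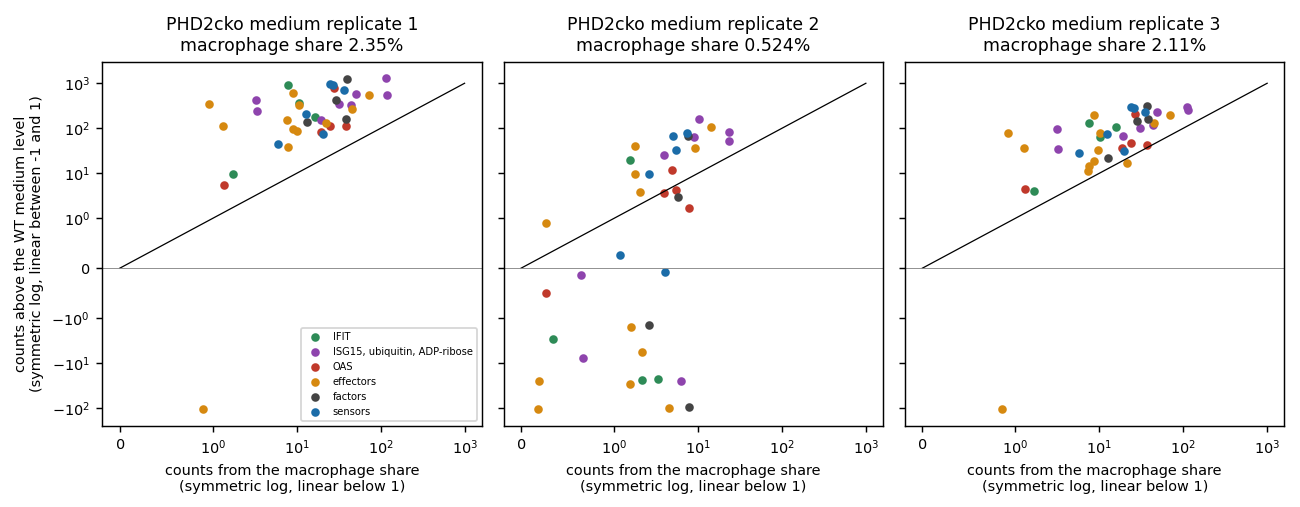
Each point is a member in 1 library of 3T3 in PHD2cko medium. The x axis gives the counts that the macrophage share of that library would carry and the y axis the counts above the WT medium level, both on symmetric log axes, with a black line where they are equal. Nearly all members lie above the line in replicate 1 (38 of 39) and replicate 3 (37 of 39), and 18 of 39 do in replicate 2.

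The label effect was then compared between the cell types in 1 model, as the fold change in 3T3 minus that in BMDM. The difference was positive for all 39 members and passed the threshold for 32, against 7.71% of genes with a positive and 4.58% with a negative difference past it. The median difference over members was 1.69, against -0.01 over all genes. It was 0.80 for Isg20, which fell in both cell types but less in 3T3. Zbp1, Oas3, Rsad2 and Cmpk2 fell in BMDM and rose in 3T3. These paired calls did not all hold under the alternatives. In BMDM, DESeq2 gave adjusted p of 0.418 for Oas3, 0.506 for Rsad2 and 0.463 for Cmpk2, and Oas3 and Cmpk2 did not pass when any BMDM library was left out. Zbp1 did not pass in BMDM in 4 of 6 fits with a library left out, nor in 3T3 in 5 of 6 such fits, with limma-voom, with the 6 libraries alone, with the replicate block or with the share subtracted. Ifit2, Ifit3, Ifit1bl1, Mx1 and Bst2 fell in BMDM without passing the threshold in 3T3, and 17 members rose in 3T3 without passing it in BMDM. The difference did not pass the threshold for Irf9, Oasl1, Trim25, Parp9, Bst2, Ifi35 and Ifi44. When each of the 12 libraries was dropped in turn, 24 of the 32 differences passed every time. Shares over all genes were not computed for these paired and repeated calls, so their counts describe the members only.

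**Figure D3:**
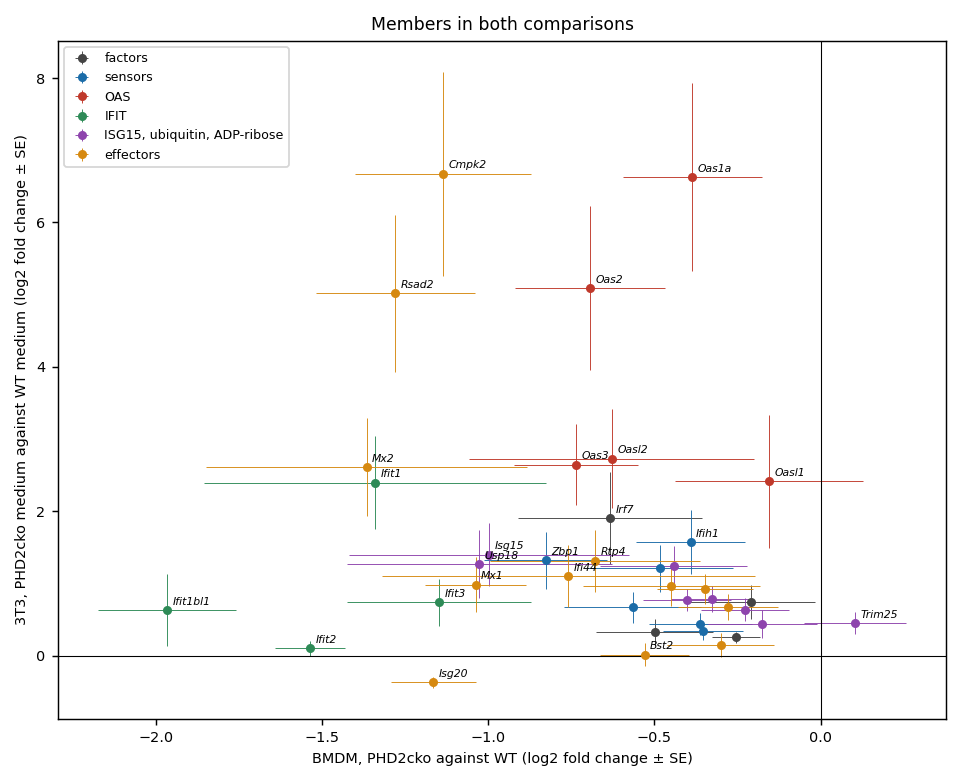
Each point is a member, coloured by role, with its log2 fold change in BMDM on the x axis and in 3T3 on the y axis and bars of 1 SE from the edgeR fit. Members lie in the upper left part of the plot, lower in BMDM and higher in 3T3, except Trim25 at right and Isg20 below the horizontal line. The values of Oas1a, Oas2, Oasl1, Rsad2 and Cmpk2 on the y axis rest on 1 to 5 counts in WT medium.

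In the WT groups, BMDM held more of these transcripts than 3T3. Of the members, 37 were higher in BMDM past the threshold (40.4% of genes were) and Isg20 was lower (44.9% of genes were), with a median log2 difference of 3.34. The highest estimates were those of Oas1a, Oas2, Cmpk2 and Rsad2, in an order that 1 to 5 counts in WT medium do not resolve, with 1018, 1264 and 1078 counts of Oas1a in WT BMDM against 1, 0 and 0 in 3T3 in WT medium. The ratio of summed counts, scaled by library totals, was 3810 for Oas1a, with a counting interval of 683 to 150515. Per kb of transcript, Bst2 was highest in both cell types, at 96.3 CPM per kb in WT BMDM and 24.2 in 3T3. In BMDM it was followed by Trim25 (51.0), Parp14 (46.6), Trim30a (44.0) and Samd9l (43.4). The libraries of Parp14, Trim30a and Samd9l overlapped, so the order of these 3 lies within their spread. In 3T3 it was followed by Isg20 (14.5), Stat2 (13.0), Trim25 (12.6) and Eif2ak2 (11.4). The libraries of Trim25 overlapped those of Stat2 and of Eif2ak2, while all Stat2 values lay above all Eif2ak2 values. The lowest were Ifi44 in BMDM (0.715) and, in 3T3, Cmpk2 and Oas1a, each with 1 count over the 3 libraries. Among members higher in BMDM, Mx1, Sp100 and Herc6 had the smallest p, with log2 differences of 5.64, 4.28 and 3.57. Isg20 stood at 5.26, 5.99 and 5.23 CPM in BMDM against 28.8, 25.1 and 26.9 CPM in 3T3 (log2 fold change -2.29 ± 0.09 (SE), adjusted p = 2.8e-11).

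**Figure D4:**
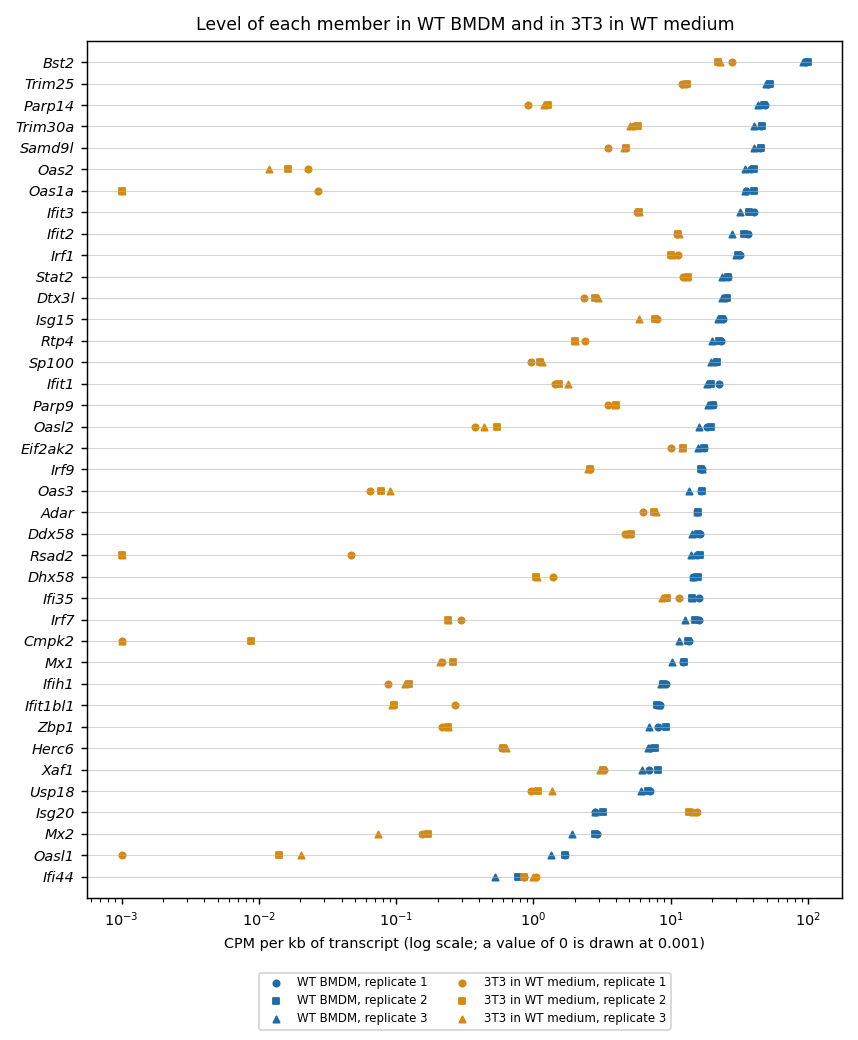
Each point is a library, as CPM per kb of transcript on a log axis, for WT BMDM (blue) and 3T3 in WT medium (orange), with members ordered by their mean in WT BMDM. Bst2 is at the top in both cell types, and Isg20 and Ifi44 are the 2 genes whose 3T3 points lie right of the BMDM points.

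Of the 37 other genes listed for the pathway, 35 were in the table and 26 were tested. The type I interferon genes on this list were Ifnb1, Ifna1, Ifna2, Ifna4 and Ifna5, and they were close to 0. Other type I interferon genes were not looked up. Ifnb1 had 1, 1 and 0 counts in WT BMDM and 0 in the other 9 libraries, Ifna4 had 1 count in 1 library of 3T3 in PHD2cko medium, and Ifna1, Ifna2 and Ifna5 had 0 counts in all 12. A count of 0 allows 3 counts, or up to 0.193 CPM in the smallest library. The receptor genes did not pass the threshold. Ifnar1 stood at 215, 224 and 209.9 CPM in WT BMDM and 205, 218 and 205 CPM in PHD2cko BMDM, and at 45.2, 47.6 and 53.9 CPM and 53.0, 54.0 and 56.8 CPM in 3T3. Ifnar2 had log2 fold changes of -0.06 in BMDM and 0.05 in 3T3, and Jak1 of -0.03 and 0.11. In BMDM, 5 of the 26 fell (3.35% of all genes) and none rose (3.38%) in the edgeR test, with 10 at an unadjusted p under 0.05 (19% of all genes). They were the feedback inhibitors Socs1 (-0.89, adjusted p = 0.0496) and Socs3 (-0.56), the kinase Ikbke (-0.34), the receptor Tlr9 (-0.46) and the nuclease Trex1 (-0.40), in log2 fold change.

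Among the pathway genes that rose in 3T3 was Tmem173, which encodes STING, from 9.51, 10.8 and 9.25 CPM to 14.6, 13.2 and 13.0 CPM (log2 fold change 0.45 ± 0.08 (SE), adjusted p = 0.00225). Ptpn6, Irf5, Irf8, Tlr7 and Tlr9 also rose. These 5 genes are expressed mainly in leukocytes, and their log2 fold changes were 2.50, 1.53, 7.46, 4.36 and 4.13. Their counts above the WT medium level corresponded to 2.01% to 3.84% of their level in PHD2cko BMDM in replicate 1, 0.328% to 0.898% in replicate 2 and 0.832% to 3.53% in replicate 3, beside macrophage shares of 2.35%, 0.524% and 2.11%. For Tmem173 the same quantity was 8.72%, 6.11% and 5.86%. No type II or III interferon gene exceeded 2 counts in any library, and Ifngr1 and Ifngr2 did not pass the threshold in either comparison.

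Some counts depend on annotation. Besides the copies named above, 8.1% of the 31-base words of Mx1 and 8.0% of those of Mx2 occur in other genes, mainly each other, and Trim30a shares 11.7%, mainly with Trim30d. Dtx3l and Parp9 overlap on opposite strands by 682 bases, and Adar overlaps Chrnb2 on the opposite strand by 7252. Whether the counting used strand is not given in the sources used here, so reads from those stretches cannot be assigned to a strand.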

How the data were processed

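Poly(A) RNA of 12 libraries was sequenced as single reads on an Illumina NextSeq. The authors quantified reads with kallisto on GRCm38 (both also named in the submitters' processing notes). The deposited table holds estimated counts per gene as whole numbers, and how they were made whole is not given in the sources used here. From these counts, genes were kept with filterByExpr by group (14285 of 32544) and scaled by TMM. All 12 libraries were fitted in 1 model with edgeR 4.0.16 in R 4.3.3 (quasi-likelihood test, two-sided, Benjamini-Hochberg adjustment over all genes tested, threshold 0.05). Alternatives were limma-voom (limma 3.58.1), which the authors used, DESeq2 1.42.0, other filters, size factors, the 6 compared libraries alone, a replicate block, libraries left out, and subtraction of the macrophage share. The share is the summed CPM of 23 macrophage markers over its mean in BMDM of the same label. The model fits and the share were tested on simulated data.

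Values in every library are given for the 2 members of each role group with the highest CPM in WT BMDM and for the 3 members with the smallest p in each direction of each comparison among those past the threshold. Members, gene lists and tests were chosen with earlier results of these data known. Shared words of 31 bases, transcript lengths and overlaps came from GENCODE on GRCm38. Counting intervals are exact binomial at 95% and cover counting error only. Totals of 15516465 to 25199770 counts put the limit of a count of 0 (3 counts) at 0.193 CPM or less. Some items of the study are not reported here.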

Additional observations from a re-analysis of the deposited data

Results flagged for a closer look

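The label effect differed between the cell types for 32 members by the test of the difference itself (edgeR quasi-likelihood, adjusted p at most 0.0498), always in the direction of a higher value in 3T3 than in BMDM. All differences below are log2 fold changes in 3T3 minus those in BMDM. Among the factors it was 0.83 for Stat2, 2.54 for Irf7 and 0.51 for Irf1. Among the sensors it was 1.96 for Ifih1, 1.24 for Ddx58, 1.69 for Dhx58, 2.15 for Zbp1, 0.80 for Eif2ak2 and 0.70 for Adar. Among the oligoadenylate synthetases it was 7.01 for Oas1a, 5.78 for Oas2, 3.38 for Oas3 and 3.35 for Oasl2. The IFIT genes had 3.74 for Ifit1, 1.64 for Ifit2, 1.89 for Ifit3 and 2.60 for Ifit1bl1. In the ISG15, ubiquitin and ADP-ribose group it was 2.39 for Isg15, 2.29 for Usp18, 1.11 for Herc6, 1.18 for Trim30a, 0.86 for Dtx3l and 1.68 for Parp14. The effectors had 2.02 for Mx1, 3.98 for Mx2, 6.30 for Rsad2, 7.81 for Cmpk2, 0.80 for Isg20, 0.95 for Samd9l, 1.41 for Xaf1, 1.99 for Rtp4 and 1.27 for Sp100. The values of Oas1a, Oas2, Rsad2 and Cmpk2 rest on 1 to 5 counts in WT medium and depend on the prior count. No group had 4 or more libraries, so no library was tested as an outlier.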

How the results depend on the processing

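With the 6 compared libraries fitted alone, 37 members fell and 1 rose in BMDM, and 3 of 35 tested rose in 3T3, against 10, 0 and 21 in the model of all 12 libraries, which shares 1 estimate of the spread. The cause was not tested. With limma-voom, 11 members rose in 3T3. Leaving out 1 library at a time gave 5 to 6 members that fell in BMDM and 11 to 34 that rose in 3T3. Of single members, Stat2 in 3T3 ranged from -0.012 (without replicate 1 of PHD2cko medium) to 0.51, Ifi35 from -0.079 to 0.28 and Bst2 from -0.20 to 0.20 in log2 fold change when 1 library was left out. Bst2 was -0.0051 with limma-voom and -0.000715 with the macrophage share subtracted. These 3 members had no call in 3T3, and no other member changed direction in any comparison under the alternatives that were run. The counts under DESeq2, size factors and the other filters stayed within 1.5 times the counts above. Ifit2, Ifit1bl1, Mx1 and Isg20 in BMDM, and Trim30a and, downwards, Isg20 in 3T3, passed the threshold under every alternative.

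Replicate numbers did not pair the libraries, with correlations of deviations between same-numbered libraries of -0.082 to 0.042. With the replicate block, 10 members fell in BMDM (2.94% of genes), 17 rose in 3T3 (7.81%) and 31 had a positive difference between cell types (6.81%). Low counts limit Oas1a, Oas2, Oasl1, Rsad2 and Cmpk2 in 3T3, where WT medium held 1 to 5 counts in all.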
